A study of Mus musculus with 42 samples.

Results

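Goblet cells release other proteins beside the gel-forming mucin, and 8 genes of goblet cell products and their release are described here: Fcgbp, Zg16, Tff3, Spink4, Retnlb, Guca2a, Bcas1 and Sytl2. They were taken by name from the 19227 named genes with a row in any of the 12 deposited tables. All 8 had a row in every table. All 8 also passed the filter on low values, a mean of at least 10 normalized counts, in every comparison between a knockout or cytokine and its control.

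The 42 libraries came from 3 sources. The first was Muc2-mCherry+ goblet cells, taken separately from each end of the colon (proximal and distal) of mice that carried Gli1-CreERT2 and Muc2-mCherry. GWTM2 mice had no floxed gene, GS4M2 mice had both copies of Smad4 floxed, and GA3M2 mice had both copies of Alk3, listed in the tables as Bmpr1a, floxed. Gli1-tdTomato+ stromal cells were sorted from matching mice, named GWTT, GS4T and GA3T. Each of these 12 groups held 2 libraries. All mice, controls included, received tamoxifen (100 µl at 20 mg/ml a day by injection) and were used at day 30. They were adults of both sexes, between 2 and 4 months of age. Cre was meant to act in Gli1+ stromal cells, so by design Smad4 and Alk3 are not deleted in the goblet cells themselves. Deletion in goblet cells was not tested. Whether 1 animal or a pool went into a library is not stated, nor whether proximal and distal libraries came from the same mice. Wild-type mouse colonic organoids, from the distal colon by the study's account, lack stroma and were collected 12 h or 72 h after 10 nM IL-1 (IL-1α with IL-1β), 10 nM IL-17A or neither, with 3 libraries per group. The labels do not mark libraries as separate animals or cultures, and p-values measure only the spread between these libraries. By sex genes, the 2 libraries of a group came from different animals in both GWTM2 groups, both GA3T groups and GWTT Proximal; for the other groups that spread may be technical.

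Goblet cells store mucin and accompanying proteins in apical granules and release them by regulated exocytosis, both steadily and on demand. The mucus of the colon is organised in an inner layer that keeps bacteria off the epithelium and an outer layer in which they live. Several of the accompanying proteins act within these layers. Fcgbp encodes a large protein with von Willebrand domains that is bound up with the mucus, Zg16 a lectin that binds the wall of Gram-positive bacteria, and Tff3 a trefoil peptide that aids epithelial repair. Spink4 encodes a Kazal-type protease inhibitor of goblet cell granules, Retnlb the resistin-like molecule RELMβ, which is bactericidal, and Guca2a the hormone guanylin, which activates guanylate cyclase C and drives salt and water into the lumen. Sytl2 encodes a Rab27 effector that docks granules at the plasma membrane, so it is part of the release machinery and not itself a product. Bcas1 is enriched in goblet cells, and its role there is not well defined.

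On GRCm38 (GENCODE annotation), the genes lie on 5 chromosomes: Fcgbp at chr7:28071236-28120862 (+), Zg16 at chr7:127050156-127087328 (-), Sytl2 at chr7:90302252-90410719 (+), Spink4 at chr4:40920052-40931395 (+), Guca2a at chr4:119637704-119639471 (+), Tff3 at chr17:31125306-31129646 (-), Retnlb at chr16:48816856-48818892 (+) and Bcas1 at chr2:170346991-170427845 (-). Zg16 is overlapped on the other strand by Gm22747 and Gm44939, and Bcas1 by Bcas1os1 and Bcas1os2. The strand setting of the counting was not given in the sources used here, so reads of these pairs cannot be told apart. RefSeq promoter sequence on GRCm38.p6 was at hand for 2 of the 8 genes, Fcgbp and Guca2a, the first of which differed between the knockouts in distal goblet cells. The 250 bases before the RefSeq start site of each are printed 5′ to 3′, for Fcgbp chr7:28070986-28071235 (+) and for Guca2a chr4:119637482-119637731 (+). The RefSeq start of Fcgbp is that of GENCODE, while the RefSeq start of Guca2a, base 119637732, lies inside the GENCODE gene, so its window takes in the first bases of that gene. They are shown for the letters in capitals, which were searched on both strands and do not overlap. One run of capitals, TATAA, is the core of a TATA box. The forkhead core is written TGTTTAC here. An E-box reads CAGCTG on either strand. A GATA site seen from the other strand gives CTTATC.
Fcgbp: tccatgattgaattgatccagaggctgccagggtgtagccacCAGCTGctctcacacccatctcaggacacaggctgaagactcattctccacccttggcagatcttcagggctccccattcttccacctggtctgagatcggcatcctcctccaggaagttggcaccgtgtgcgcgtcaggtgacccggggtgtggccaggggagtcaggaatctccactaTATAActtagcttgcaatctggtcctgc
Guca2a: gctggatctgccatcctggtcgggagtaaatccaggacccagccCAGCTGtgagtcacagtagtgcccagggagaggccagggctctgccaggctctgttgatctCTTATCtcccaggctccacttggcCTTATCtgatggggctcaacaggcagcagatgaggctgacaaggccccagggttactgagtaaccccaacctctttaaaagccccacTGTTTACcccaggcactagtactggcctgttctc
Counted from the RefSeq starts, the Fcgbp window holds TATAA with its first base at -28 and CAGCTG at -208. The Guca2a window holds TGTTTAC at -34, CTTATC at -145 and at -121, and CAGCTG at -206. Of 32851 RefSeq promoter windows of that length, 22.8% hold TATAA on either strand, 3.17% TGTTTAC, 13% CAGCTG and 6.55% CTTATC. These matches describe the letters and are no evidence of binding.

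Depth was between 14222902 and 23686940 reads on named genes per library. The 8 genes together took 1.11% to 3.85% of the reads of a goblet cell library (median 1.73%), 0.139% to 0.565% of an organoid library (median 0.35%) and 0.00347% to 0.047% of a stromal library (median 0.0202%). All 9 markers fixed for goblet cells were detected in every goblet cell group, but also in every organoid and stromal group. Their detection alone thus does not bear out the goblet cell label. Of 8 stromal markers 2 to 7 had no reads or no row in a goblet cell group. In CPM (read counts in per-million scaling), the 9 goblet markers summed to 22945 to 34599 in proximal GWTM2 and GS4M2 cells but to 6652 and 8122 in proximal GA3M2 cells, and to 15488 to 30137 in distal GWTM2, 25106 to 26153 in distal GS4M2 and 5512 and 7729 in distal GA3M2 cells. On the same 9 markers control organoids at 12 h summed to 4143 to 5520 CPM. The 8 colonocyte markers summed to 3284 to 5205 CPM in distal and 3478 to 8365 in proximal GA3M2 cells. In GWTM2 cells those sums were 2455 to 4793 distal and 4026 to 7542 proximal. For GA3M2 cells the markers thus did not settle the goblet cell label. By Xist and genes of the Y chromosome, library 1 of each GWTM2 pair was female and the other 10 goblet cell libraries were male. Of the stromal libraries 9 were female and 3 male, namely GWTT Proximal library 1 and library 1 of each GA3T pair. In organoids the control libraries 1 and 4 of 72 h held the same reads as the control libraries 2 and 4 of 12 h. Control library 2 of 72 h was close to that shared library 4, with a mean chi-square of reads per gene of 3.3. Libraries 3 and 4 were also close to each other after 12 h of IL-1 (3.03) and of IL-17A (3.32). Pairs within an organoid group ranged from 3.03 to 212. Whether such close libraries are separate cultures is not stated.

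Per length, the secreted products stood far above the granule gene Sytl2 and above Bcas1 in goblet cells. In distal GWTM2 cells Zg16 was at 5809 ± 1655 RPKM (CPM per kilobase of exon; SD, n = 2), Spink4 at 4347 ± 344, Tff3 at 3010 ± 1347 and Fcgbp at 1848 ± 1124. Retnlb was at 1600 ± 911 RPKM there, Guca2a at 714 ± 506, Bcas1 at 70.3 ± 7.02 and Sytl2 at 30.7 ± 4.76. From Zg16 to Guca2a, the mean ± SD of neighbours in this order overlapped. The libraries themselves did not overlap between Zg16 (4638 to 6979 RPKM), Spink4 (4104 to 4591) and Tff3 (2058 to 3963). Bcas1 and Sytl2 stood clear of the rest and of each other. In proximal GWTM2 cells the order was Zg16 (3131 ± 1147 RPKM) and Spink4 (3119 ± 474), then Tff3 (1883 ± 797), Guca2a (1842 ± 790) and Retnlb (1769 ± 1444), then Fcgbp (591 ± 66.4). Retnlb had the highest level per length in both proximal knockout groups, at 8383 ± 1665 RPKM in GS4M2 and 4914 ± 218 in GA3M2 cells, and Spink4 in both distal ones, at 4318 ± 621 and 6801 ± 657. In organoids without cytokine at 12 h Tff3 led with 799 ± 111 RPKM (n = 3), Zg16 followed with 541 ± 150 and Spink4 with 507 ± 180. Retnlb, at 3.93 ± 3.11 RPKM, was the lowest of the 8 in organoids whereas in goblet cells it was of the order of the other secreted products.

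**Figure D1:**
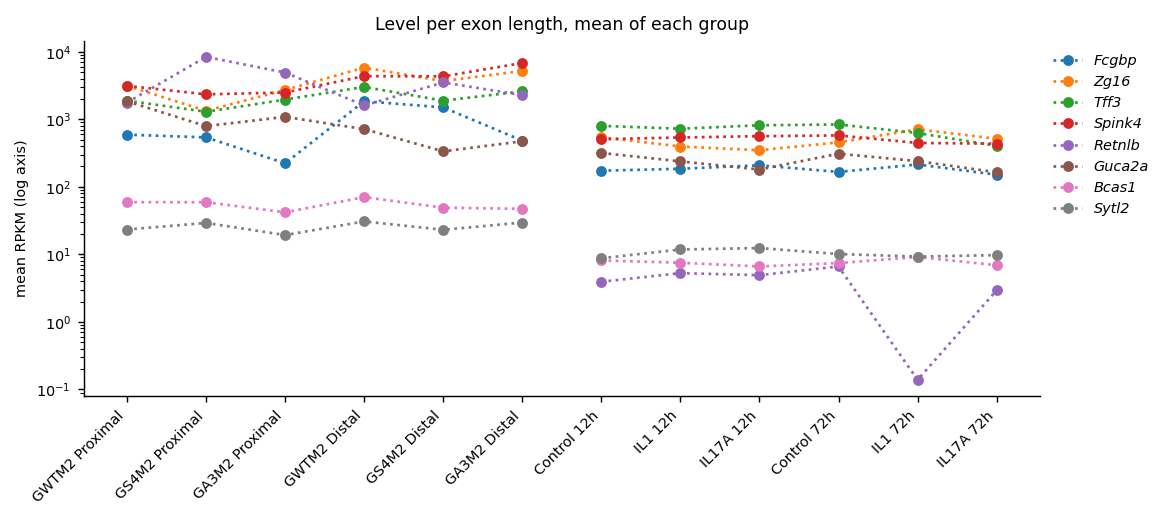
Mean level per exon length (RPKM, log axis) of each gene in the 6 goblet cell groups and the 6 organoid groups, with dotted lines only to guide the eye within a source. Retnlb lies at 1600 RPKM or more in each goblet cell group and at 6.61 or less in each organoid group, down to 0.139 after 72 h of IL-1.

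The comparison of GS4M2 with GWTM2 goblet cells asked what loss of Smad4 in the stroma did to these products. In the proximal colon, Retnlb was at 109434 and 84768 normalized counts in the GS4M2 libraries and at 33056 and 8928 in the GWTM2 libraries. Both GS4M2 libraries lay above both controls, and the controls themselves differed by more than 3 times. The log2 fold change was 2.49 ± 0.57 (SE), with an adjusted p of 0.13. To pass, a gene needed an adjusted p under 0.05 over all genes tested and a 2-fold difference by limma on log2(normalized count + 1), so Retnlb did not. Guca2a was at 7593 and 8072 normalized counts against 12977 and 24446, with a fold change of -1.19 ± 0.28 on the log2 scale (adjusted p = 0.14). Zg16 was at 16349 and 39871 against 84349 and 49976, a log2 fold change of -1.35 ± 0.45 (adjusted p = 0.23). For both genes the 2 groups stood apart without overlap, with every GS4M2 library below the controls.

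In the distal colon Retnlb was at 42246 and 41338 normalized counts in GS4M2 libraries and at 27662 and 12049 in the controls (1.19 ± 0.40 on the log2 scale, adjusted p = 0.45). Guca2a was at 3189 and 3635 against 3749 and 11526 (-0.95 ± 0.52, adjusted p = 0.55), and Zg16 at 62411 and 96364 against 155364 and 105528 (-0.72 ± 0.34, adjusted p = 0.5). Each lay on the same side of its controls as in the proximal colon, again without overlap. In the test of the difference between segments, Retnlb gave 1.29 ± 0.86 (adjusted p = 0.7), Zg16 -0.62 ± 0.67 (adjusted p = 0.82) and Guca2a -0.24 ± 0.71 (adjusted p = 0.94).

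Of the 8 genes, 0 passed in proximal and 0 in distal GS4M2 cells by limma, against 0.325% and 0% of all genes tested. By the unadjusted p and a 2-fold limit 3 and 1 would pass. DESeq2 and edgeR also called 0 of the 8 in either segment, where DESeq2 called 2.04% and 1.12% of all genes. Groups without overlap were common, at 50.2% of all genes proximal and 45.7% distal, and covered 5 of the 8 genes in each. The median log2 fold change of the 8 genes was -0.38 proximal and -0.52 distal, beside 0.00 for all genes. The female library 1 of each GWTM2 pair held more Retnlb, Zg16 and Tff3 and less Guca2a, Fcgbp and Muc2 than library 2. Without it, the only control left was male like the knockouts, and Retnlb was 3.43 on the log2 scale in proximal cells (adjusted p = 0.0086) and 1.79 in distal cells (adjusted p = 0.017), and Guca2a -1.64 (adjusted p = 0.012) and -1.76 (adjusted p = 0.01). Without the male control library 2 the values went the other way, with Retnlb at 1.54 (adjusted p = 0.11) and 0.60 (adjusted p = 0.2) and Guca2a at -0.73 (adjusted p = 0.18) and -0.14 (adjusted p = 0.68), and without either GS4M2 library neither gene passed. The part of sex in these values was not tested beyond that. In the proximal GS4M2 table, a supplement to the study names the 2 groups in the opposite order, and under that reading each proximal GS4M2 sign turns around. The GWTM2 columns here hold the same reads as those in the GA3M2 table, which is the naming followed.

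Other members gave small or overlapping values in GS4M2 cells. Fcgbp was at 55081 and 134707 normalized counts in proximal GS4M2 cells and 97269 and 114851 in the controls, and at 229990 and 309842 against 195839 and 502074 in the distal colon. The GS4M2 libraries thus spanned or fell within the range of the controls, with log2 fold changes of -0.30 ± 0.43 and -0.23 ± 0.55. Tff3 overlapped its controls in both segments (-0.59 and -0.75), as Spink4 did in the distal colon (-0.08), while proximal Spink4 lay below its controls without overlap (-0.47 ± 0.22, adjusted p = 0.35). Sytl2 was at 6635 and 6946 normalized counts in proximal GS4M2 cells against 5713 and 5405 (0.29 ± 0.10, adjusted p = 0.24), and at 5259 and 5781 against 8405 and 6893 in distal cells (-0.47 ± 0.14, adjusted p = 0.43). It lay above both controls in one segment and below both in the other, and the difference between the 2 fold changes was 0.75 ± 0.17 (adjusted p = 0.56). Bcas1 was level in the proximal colon (-0.04 ± 0.11) and lay below its controls in the distal colon, at 3085 and 3272 against 4371 and 5146 (-0.58 ± 0.13, adjusted p = 0.38 by limma and 0.041 by DESeq2). Muc2, the gene of the reporter, gave 1.00 ± 0.35 proximal (adjusted p = 0.24) and 1.62 ± 0.50 distal (adjusted p = 0.43).

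**Figure D2:**
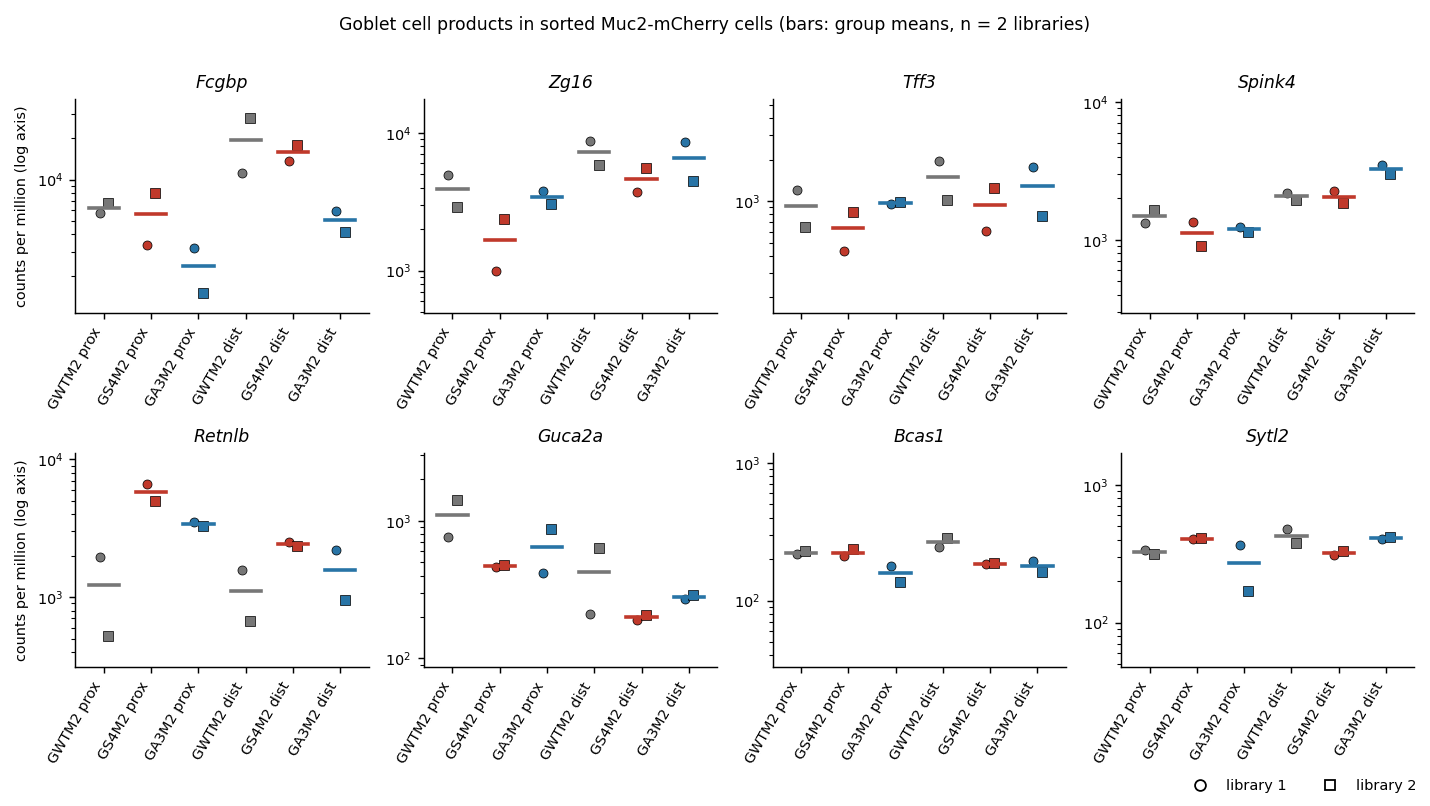
Level in CPM (log axis) of each gene in each Muc2-mCherry+ library, with circles for library 1 and squares for library 2 and a bar at the mean of each group of 2. Retnlb lies above its controls in every GS4M2 library, and Fcgbp below its controls in every GA3M2 library.

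Loss of Alk3 in the stroma was compared with the same 2 control libraries in each segment. In the proximal colon Fcgbp was at 58101 and 28622 normalized counts in GA3M2 cells and at 103564 and 121419 in the controls (-1.46 ± 0.44 on the log2 scale, adjusted p = 0.25 by limma, 0.003 by DESeq2). In the distal colon it was at 102184 and 68243 against 187351 and 484616, a log2 fold change of -1.85 ± 0.52 (adjusted p = 0.34 by limma, 5.9e-04 by DESeq2). Every GA3M2 library lay below every control, and the difference between the fold changes in the 2 segments was within its error (0.39 ± 0.76, adjusted p = 1). Without GWTM2 library 1 distal Fcgbp was -2.54 on the log2 scale (adjusted p = 2.8e-05), and Guca2a passed as well at -1.24 (adjusted p = 8.5e-04). Without GWTM2 library 2 distal Fcgbp was -1.17 (adjusted p = 0.055) and Guca2a turned to 0.39 (adjusted p = 0.53), and without either GA3M2 library neither passed (adjusted p up to 0.79 and 0.95). Without GA3M2 library 1 proximal Fcgbp was -1.97 (adjusted p = 0.042), and without GA3M2 library 2 it was -0.95 (adjusted p = 0.34). In the same cells the reporter gene Muc2 was at 18753 and 14042 normalized counts in the proximal colon against 179572 and 224217, a fall of 3.63 ± 0.34 on the log2 scale (adjusted p = 0.046). The 6 leukocyte markers summed to 29 to 37.3 CPM in GA3M2 cells and to 5.44 to 14.4 CPM in GWTM2 cells, with Cd3e without reads or row in both and 5 of the 6 detected in each GA3M2 group. The 9 goblet markers, which include Muc2, were lower in GA3M2 cells. They summed to 6652 and 8122 CPM in proximal GA3M2 and to 22945 to 27880 in proximal GWTM2 cells. In distal cells the sums were 5512 and 7729 against 15488 to 30137. The 8 goblet cell regulators had median log2 fold changes of 0.09 proximal and -0.12 distal. The part of leukocytes or of goblet cell content in the Fcgbp values was not tested.

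Retnlb in proximal GA3M2 cells was at 64422 and 63505 normalized counts against 35195 and 9439, a log2 fold change of 1.81 ± 0.60 (adjusted p = 0.27 by limma, 0.039 by DESeq2). In distal cells the 2 groups overlapped, at 38092 and 15653 against 26463 and 11630 (0.48 ± 0.55, adjusted p = 0.77). Library 1 was the higher of the pair in both distal groups. Spink4 was at 59581 and 49415 normalized counts in distal GA3M2 cells against 37102 and 34198, a log2 fold change of 0.61 ± 0.20 (adjusted p = 0.38 by limma, 0.039 by DESeq2). In proximal cells it was at 22449 and 21941 against 24064 and 29856 (-0.27 ± 0.25, adjusted p = 0.6), on the other side of its controls. The difference between the segments was -0.88 ± 0.32 with an adjusted p of 1. Bcas1 lay below its controls in both segments, by -0.47 ± 0.19 (adjusted p = 0.32) and -0.62 ± 0.18 (adjusted p = 0.34). Zg16, Tff3 and Sytl2 overlapped their controls in both segments, with log2 fold changes between -0.33 and 0.17, and so did Guca2a with -0.75 and -0.43.

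By limma, 0 of the 8 genes passed in proximal and 0 in distal GA3M2 cells, against 0.0899% and 0% of all genes. With the unadjusted p and a 2-fold limit 2 and 1 would pass, edgeR called 0 and 0, and DESeq2 called 2 (Fcgbp and Retnlb) and 1 (Fcgbp), against 3.23% and 1.83% of all genes. Groups without overlap covered 4 and 3 of the 8 genes, beside 52.1% and 44.2% of all genes. The differences between segments were called for 0 of the 8 genes in GS4M2 and 0 in GA3M2 cells, against 0% of all genes in each, and for 0 at the unadjusted p with the 2-fold limit. In sorted bulk libraries fewer cells of a type and less RNA per cell cannot be told apart.

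**Figure D3:**
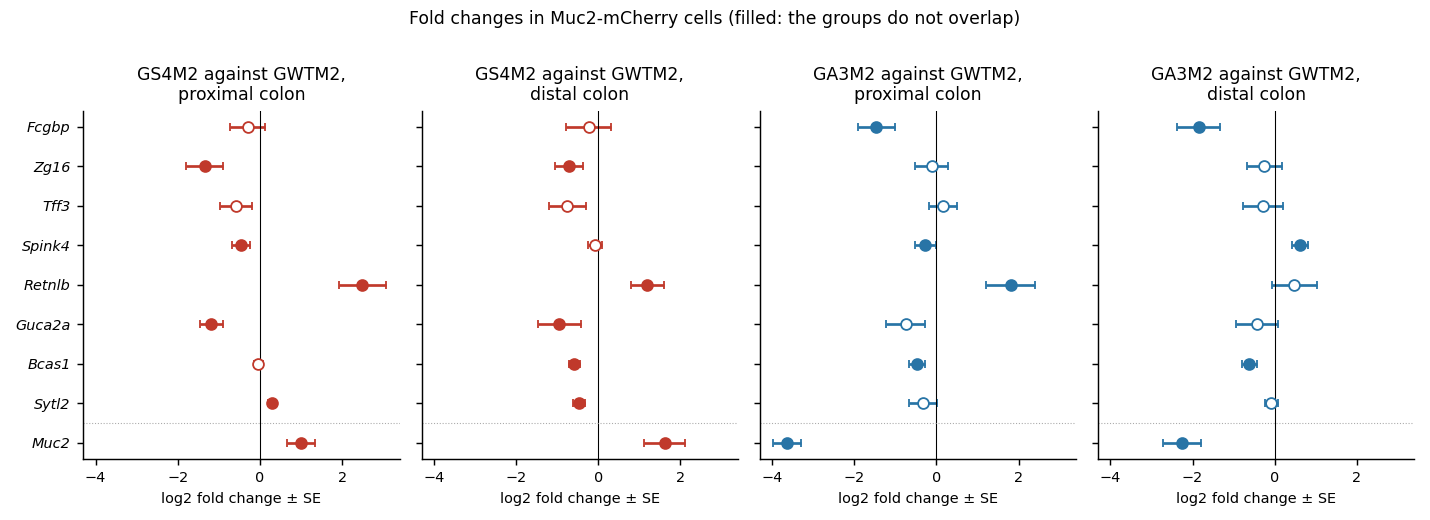
Log2 fold change ± SE (limma, 2 libraries against 2) of each gene and of Muc2 in the 4 comparisons of knockout with control goblet cells, with filled points where the groups do not overlap. The 2 GS4M2 panels share the Retnlb, Guca2a and Zg16 directions and the 2 GA3M2 panels the Fcgbp direction, with controls shared between knockouts of a segment.

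The knockouts were compared with each other on CPM of the recovered reads, since their tables were normalized apart. In distal goblet cells Fcgbp was at 13662 and 17773 CPM in GS4M2 and at 5944 and 4174 CPM in GA3M2 libraries. The groups did not overlap, and Fcgbp was 3.13 times higher in GS4M2 cells (log2 difference 1.65 ± 0.26, adjusted p = 0.04 by limma, 0.032 by edgeR and 4.8e-10 by DESeq2). It was the only one of the 8 genes to pass, against 1.49% of all genes by limma and 3.16% by DESeq2. The call was lost without GA3M2 Distal library 2 (1.39, adjusted p = 0.11), and without GA3M2 Distal library 1 Retnlb passed too (1.35, adjusted p = 0.0099, against 0.14 and 0.76 without library 2). The summed goblet markers, which were lower in GA3M2 cells, moved with Fcgbp. Muc2 is 1 of them, at a mean of 12657 CPM in distal GS4M2 and 842 in distal GA3M2 cells. The 8 goblet cell regulators had a median log2 difference of -0.06 in distal cells, beside 0.02 for all genes. The part of goblet cell content in the Fcgbp difference was not tested. In proximal cells Fcgbp was at 3349 and 7970 CPM against 3182 and 1493 (1.24 ± 0.55, adjusted p = 0.33), and 0 of the 8 genes passed by limma, edgeR or DESeq2, against 0.297% of all genes, with 1 (Zg16) at the unadjusted p and 2-fold. Without GA3M2 Proximal library 1 Fcgbp (1.79, adjusted p = 0.021) and Sytl2 (1.24, adjusted p = 0.0011) passed, whereas other libraries left out took Fcgbp down to 0.62 (without GS4M2 library 2, adjusted p = 0.88) and Sytl2 down to 0.15 (without GA3M2 library 2, adjusted p = 0.7). Distal Spink4 gave -0.66 ± 0.17 (adjusted p = 0.11 by limma, 0.002 by DESeq2) and distal Guca2a -0.49 ± 0.11 (adjusted p = 0.085 by limma, 0.013 by DESeq2), both higher in GA3M2 cells. Muc2 was also higher in GS4M2 than in GA3M2 cells, by 3.91 ± 0.19 (adjusted p = 0.0018) in the distal and 4.71 ± 0.37 (adjusted p = 0.011) in the proximal colon. Retnlb gave 0.74 ± 0.36 distal (adjusted p = 0.32) and 0.76 ± 0.36 proximal (adjusted p = 0.35). Of the targeted genes, Smad4 gave -0.50 ± 0.13 distal (adjusted p = 0.12 by limma, 0.019 by DESeq2) and -0.39 ± 0.17 proximal (adjusted p = 0.33). Bmpr1a gave 0.01 ± 0.12 distal (adjusted p = 0.96) and 0.24 ± 0.19 proximal (adjusted p = 0.53).

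Along the colon of control mice, Fcgbp was at 5714 and 6701 CPM in proximal and at 11058 and 27740 CPM in distal GWTM2 goblet cells. The log2 difference was -1.50 ± 0.52 (adjusted p = 0.34 by limma, 0.0019 by DESeq2), and the groups did not overlap. Guca2a ran the other way, at 762 and 1426 CPM proximal against 212 and 637 distal, a log2 difference of 1.50 ± 0.59 (adjusted p = 0.39). It was 2.30 without GWTM2 Distal library 2 (adjusted p = 0.024), 0.71 without Distal library 1 (adjusted p = 0.39), and 1.95 or 1.05 without either proximal library (adjusted p = 0.69 and 1). Zg16 was at 4955 and 2916 CPM proximal and at 8773 and 5831 distal (-0.91 ± 0.38, adjusted p = 0.41). Spink4 (-0.48), Sytl2 (-0.39) and Bcas1 (-0.24) also lay lower in the proximal colon without overlap, and Tff3 (-0.67) and Retnlb (-0.02) overlapped. By limma 0 of the 8 passed, against 0.467% of all genes, edgeR called 0, and DESeq2 and the unadjusted p each gave 1, Fcgbp, where DESeq2 called 3.16% of all genes.

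Few other genes of the pathway passed the test in goblet cells. Lists were counted at an adjusted p under 0.05 with no fold limit, which 0.325% and 0% of all genes met in GS4M2 (proximal and distal) and 0.0899% and 0% in GA3M2 cells. Of 8 genes of mucus core and assembly, 1 passed in any knockout, Muc2 in proximal GA3M2 cells, and 0 of 8 goblet cell regulators, 14 genes of granule exocytosis, 6 of the guanylin pathway and 7 antimicrobial genes did so. Median log2 fold changes of the mucus core and assembly genes were -0.04 and -0.26 in GS4M2 and -1.19 and -0.64 in GA3M2 cells (proximal and distal), beside 0.00 for all genes. Between the knockouts, where 2.05% of all genes met the limit in distal and 0.297% in proximal cells, 2 of 8 mucus genes, 1 of 6 antimicrobial genes tested and 2 of 6 guanylin genes did so in distal cells. Muc2, Clca1 (3.14 ± 0.52, adjusted p = 0.043), a mucus-resident metalloprotease, and Ang4 (4.04 ± 0.39, adjusted p = 0.0095), an antimicrobial ribonuclease, were higher in GS4M2, and the kinase Prkg2 (-1.75 ± 0.32, adjusted p under the limit and 0.05 after rounding) and the guanylin receptor Gucy2c (-0.58 ± 0.10, adjusted p = 0.049) were lower. In proximal cells Ang4 was again higher in GS4M2 (3.90 ± 0.23, adjusted p = 0.004). Along the control colon the transglutaminase Tgm3 was lower in proximal cells (-5.96 ± 0.33, adjusted p = 0.02), the only list gene to pass there beside 0.467% of all genes.

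Of the paralogs, Guca2b (uroguanylin) was at 14.4 to 56.8 CPM in goblet cells and Spink1, another Kazal inhibitor, at 21.5 to 296. The Rab27 effectors Sytl1 and Sytl4 were at 35.8 to 80.6 and 29.8 to 94.3 CPM, and Sytl3 and Sytl5 at 2.13 or less. Tff2 reached 3.53 CPM in the 6 goblet cell libraries that list it. The resistin relatives Retnla and Retnlg had rows only in stromal tables.

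The stromal libraries were sorted for Gli1-tdTomato, and the products of goblet cells in them were read beside markers of epithelium. The targeted genes came first: Smad4 was lower in GS4T cells by log2 fold changes of -1.09 ± 0.12 (adjusted p = 0.01) proximal and -0.96 ± 0.25 (adjusted p = 0.042) distal. Bmpr1a gave -0.61 ± 0.14 (adjusted p = 0.12) and -0.69 ± 0.11 (adjusted p = 0.1) in GA3T cells. All 8 stromal markers were present in each group, summing to 41874 to 58185 CPM.

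Retnlb and Spink4 were far higher in distal GS4T libraries than in their controls. Retnlb was at 252 and 877 normalized counts in distal GS4T libraries and at 35.2 and 40.7 in GWTT libraries, a rise of 3.60 ± 0.57 (adjusted p = 0.01). Spink4 was at 406 and 572 against 23.5 and 71.6, a rise of 3.52 ± 0.53 (adjusted p = 0.009). Tff3 rose by 1.71 ± 0.42 (adjusted p = 0.036), from 36.2 and 72.6 normalized counts to 145 and 198. For each of the 3 the groups did not overlap, which held for 67.5% of all genes. Fcgbp went the other way without passing, at 353 and 777 against 847 and 1953 (-1.29 ± 0.50, adjusted p = 0.11). Zg16 (1.77 ± 0.53, adjusted p = 0.062) and Bcas1 (2.42 ± 0.76, adjusted p = 0.071) lay above their controls, and Guca2a overlapped. The count was 3 of 8 genes, against 13.9% of all genes, and the median of the 8 was 1.74 beside 0.00. Each of these calls was lost when some library was left out: Tff3 without GWTT Distal library 1 (adjusted p = 0.16) or either GS4T library (0.097 and 0.15), Spink4 without either GS4T library (0.054 and 0.062), and Retnlb without either GWTT library (0.063, and 0.05 after rounding).

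In the proximal stroma the 2 control libraries were unlike each other, and differed in sex, library 1 being male and library 2 female like all GS4T libraries. GWTT Proximal library 1 had 0 reads of Zg16, Tff3 and Spink4 and 1 read each of Fcgbp, Retnlb and Bcas1, while library 2 had Fcgbp at 1788, Zg16 at 560 and Guca2a at 948 normalized counts. The part of sex was not tested. Against that pair Retnlb rose by 6.85 ± 1.32 (adjusted p = 0.032) in GS4T libraries, at 419 and 1643 normalized counts against 1.03 and 24.6. Without GWTT library 1 it still passed (adjusted p = 0.02), and without either GS4T library it did not pass (adjusted p = 0.14 and 0.19). Spink4 was at 229 and 555 against 0 and 24.6 (adjusted p = 0.058, and 0.018 without GWTT library 1). Thus 1 of 8 genes passed, against 9.6% of all genes, and without GWTT library 2 the count was 7 of 8. The difference between segments passed for 0 of the 8 genes, against 0.195% of all genes, with 0 at the unadjusted p and 3 without GWTT Proximal library 2.

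In GA3T libraries 0 of the 8 genes passed by limma or edgeR in the proximal or the distal colon, against 0.358% and 0% of all genes, with 1 and 3 at the unadjusted p and 2-fold, and 4 in the proximal colon without GWTT library 2. Distal Spink4 was at 675 and 219 normalized counts against 26.8 and 81.5 (3.01 ± 0.73, adjusted p = 0.15 by limma, 2.3e-04 by DESeq2). Distal Tff3 was at 559 and 184 against 41.3 and 82.6 (2.44 ± 0.62, adjusted p = 0.16 by limma, 8.0e-04 by DESeq2). DESeq2 called these 2 in the distal colon and 0 in the proximal colon, against 5.03% and 6.31% of all genes. Retnlb, at 48.9 and 12.8 against 40.2 and 46.3 in the distal colon, overlapped its controls (-0.75 ± 0.71, adjusted p = 0.6). The difference between segments was called for 0 of the 8 genes, against 0% of all genes, and for 0 at the unadjusted p.

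Epithelial markers moved with these values. The 8 epithelium markers, all detected, summed to 77.9 and 225 CPM in distal GWTT libraries, 879 and 1744 in distal GS4T, and 551 and 1333 in distal GA3T. In the proximal colon the sums were 25.9 and 648 CPM in GWTT, 1529 and 2028 in GS4T, and 643 and 1009 in GA3T. The lowest sum was that of GWTT Proximal library 1, which also lacked the goblet products. As a percentage of that sum, Retnlb was 2.75% and 1.11% in distal GWTT, 1.75% and 3.01% in distal GS4T, and 0.206% and 0.12% in distal GA3T libraries. In the proximal colon it was 0.236% and 0.229% in GWTT, 1.68% and 4.74% in GS4T, and 0.375% and 0.738% in GA3T libraries. GS4T and GWTT libraries thus overlapped in the distal but not in the proximal colon. Fcgbp was 66.3% and 53.4% of the sum in distal GWTT libraries, 2.45% and 2.67% in distal GS4T, and 19.5% and 11.6% in distal GA3T. Tff3, which had risen in distal GS4T libraries, was lower there on this scale, at 1.01% and 0.681% against 2.83% and 1.98% in GWTT. Spink4 was at 2.81% and 1.96% in distal GS4T and 1.84% and 1.96% in distal GWTT libraries. The part of epithelial RNA in the stromal values was not tested.

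Sytl2 was the exception among the 8. It was at 26.5 to 47.5 CPM in all 12 stromal libraries, 33.4 in the library with the fewest epithelial reads, and gave log2 fold changes between -0.54 and 0.15, with 0 of 4 comparisons passing by limma, edgeR, DESeq2 or the unadjusted p with the 2-fold limit.

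**Figure D4:**
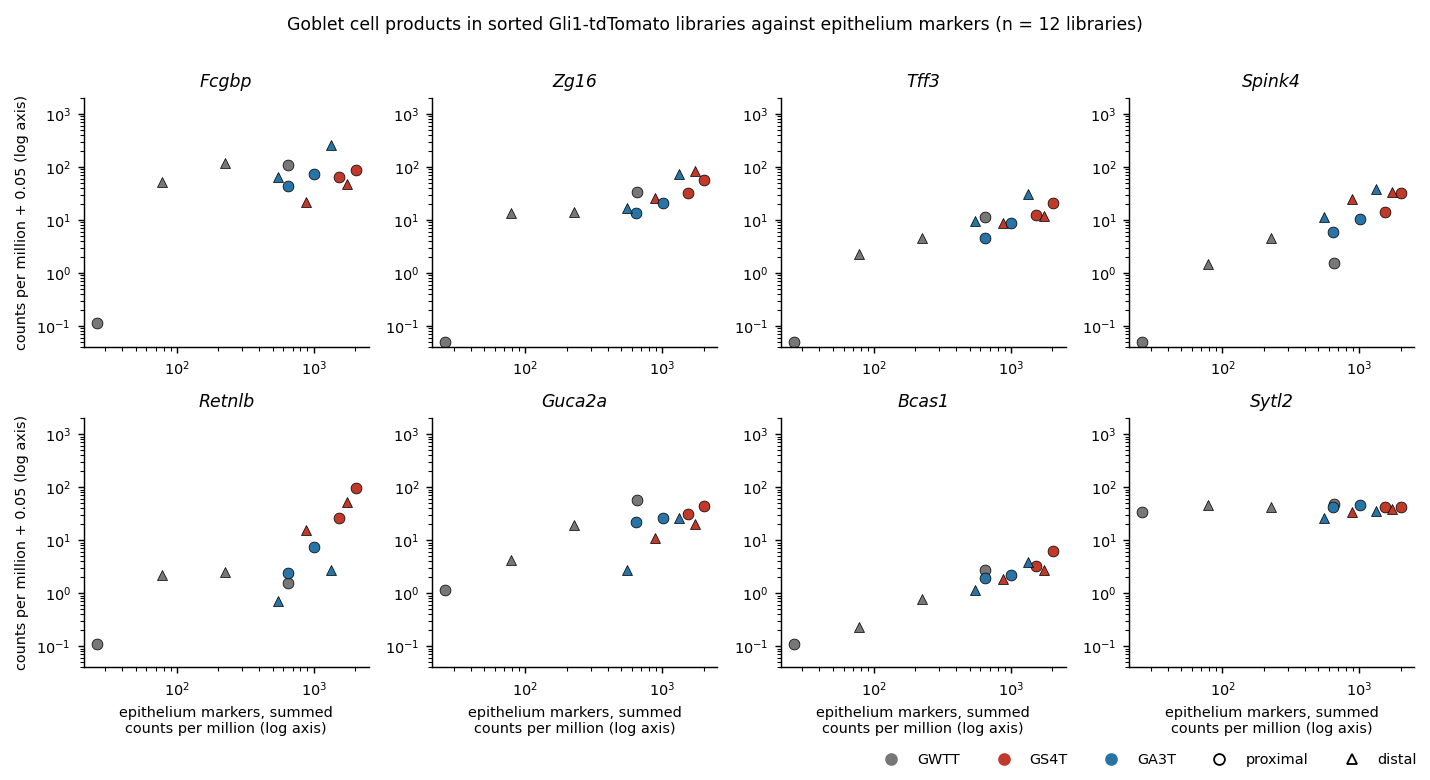
Level in CPM of each gene in the 12 Gli1-tdTomato+ libraries (both axes log, 0.05 added on the vertical axis) against the summed CPM of 8 epithelium markers. Of the 8 genes, 7 are lowest in the library with 25.9 CPM of markers, whereas Sytl2 stays between 26.5 and 47.5 CPM.

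In distal GS4T libraries 23.2% of all genes met the adjusted p limit of the lists, and a list whose share lies near that shows nothing of its own. Of the 8 mucus core and assembly genes 4 were higher and 1 lower: Agr2 (2.93 ± 0.38, adjusted p = 0.006), a disulfide isomerase of mucin folding, and Muc2 (2.90 ± 0.65, adjusted p = 0.028) rose, and Clca1 fell by 3.08 on the log2 scale (adjusted p = 0.0064). Of 7 antimicrobial genes, 5 of them tested, 4 rose, among them Reg3g at 5.84 ± 0.93 (adjusted p = 0.01) and Reg3b at 5.41 ± 0.88 (adjusted p = 0.011), and Ang4 fell by 3.86 (adjusted p = 0.01). Of 14 exocytosis genes 3 rose, a share near that of all genes: Sytl5 (4.74 ± 0.88, adjusted p = 0.017), Rab27b (2.14 ± 0.45, adjusted p = 0.024) and Stxbp2 (0.77 ± 0.15, adjusted p = 0.018). Of 6 guanylin pathway genes 2 rose, Gucy2c (2.95 ± 0.58, adjusted p = 0.02) and Pde5a (0.67 ± 0.12, adjusted p = 0.016). Of 8 regulators 2 rose (Foxa1, 4.40 ± 1.00, adjusted p = 0.029, and Foxa3, 2.66 ± 0.73, adjusted p = 0.049) and 2 fell (Klf4, -1.36 ± 0.22, adjusted p = 0.011, and Xbp1, -0.64 ± 0.16, adjusted p = 0.04, named after its value was seen). Retnlg, a resistin relative of myeloid cells, rose by 4.20 ± 0.42 (adjusted p = 0.003). The 6 leukocyte markers summed to 774 and 1335 CPM in distal GS4T libraries and to 275 and 407 in distal GWTT libraries. In proximal GS4T libraries, where 15.5% of all genes met the limit, Creb3l1 (1.77 ± 0.19, adjusted p = 0.0088), Spdef (3.80 ± 0.85, adjusted p = 0.044), Sytl5 (3.60 ± 0.71, adjusted p = 0.033), Stxbp2 (1.42 ± 0.13, adjusted p = 0.0071) and Vamp8 (0.50 ± 0.12, adjusted p = 0.047) rose, and 0 list genes passed in GA3T, beside 0.358% proximal and 0% distal of all genes.

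The organoid comparisons asked whether IL-1 or IL-17A acted on the epithelium itself. At 12 h the 8 genes stayed close to control. Retnlb split by library number and not by treatment. It was at 4.69, 56.1 and 68.1 normalized counts in control libraries 1, 2 and 4, and at 4.45, 86.9 and 87.6 in IL-1 libraries 1, 3 and 4. In the IL-17A table controls were at 4.92, 58.8 and 71.3 and IL-17A libraries at 5.2, 74.1 and 95.9. Library 1 was the low one in all 3 groups. The log2 fold changes were 0.31 ± 1.37 (adjusted p = 0.96) and 0.27 ± 1.34 (adjusted p = 0.98). Fcgbp lay above its controls without overlap after IL-17A, as 10.9% of all genes lay apart from theirs, at 40042, 34628 and 37786 normalized counts against 33326, 28916 and 28357 (0.31 ± 0.12, adjusted p = 0.93). Guca2a lay below, at 1828, 1783 and 1901 against 2209, 5103 and 2103 (-0.64 ± 0.33, adjusted p = 0.93). After IL-1 all 8 genes overlapped, beside 9.52% of all genes that did not. By limma, edgeR and DESeq2 0 of the 8 passed with either cytokine, against 0.0542% (IL-1) and 0.0385% (IL-17A) of all genes by limma, and 0 at the unadjusted p with the 2-fold limit.

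At 72 h Retnlb fell after IL-1. It was at 53.2, 88.6 and 65.3 normalized counts in control libraries and at 0, 2.99 and 2.19 in IL-1 libraries. All IL-1 libraries lay below all controls. The 2 groups stood apart, in either direction, for 54.7% of all genes. It fell by 4.88 ± 0.64 on the log2 scale (adjusted p = 0.0031 by limma, 0.0034 by edgeR and 6.5e-09 by DESeq2). In recovered reads that is 5 in IL-1 against 230 in control organoids at like depth, 46.2 times fewer (95% interval 19.5 to 144, counting error only). The interval leaves out the spread between libraries. Untreated control library 1 of 12 h held 5 reads, beside 60 and 77 in control libraries 2 and 4. Only libraries 2 and 4 recur among the 72 h controls. The only 1 of the 8 genes to pass was Retnlb, against 23% of all genes. Leaving out any 1 library kept the call, with fold changes between -5.26 and -4.26. Leaving out both control libraries shared with 12 h left 1 control, and Retnlb then gave -5.26. That control, library 2 of 72 h, was itself close in its reads to the left-out library 4 (mean chi-square 3.3). The 72 h controls are thus not clearly separate from those of 12 h.

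After IL-17A Retnlb was at 3.36, 91.3 and 2.52 normalized counts against 53.1, 88.1 and 65.2 in controls. Library 2 stood at the level of the controls, and the other two at the level of the IL-1 libraries. The log2 fold change was -2.61 ± 1.21 (adjusted p = 0.16), and without IL-17A library 2 it was -4.12 (adjusted p = 0.0028). By limma, edgeR and DESeq2 0 of the 8 genes passed, against 7.94% of all genes, with 0 at the unadjusted p. Between the cytokines 0 of the 8 passed at 12 h and 0 at 72 h by limma, edgeR and DESeq2, against 0% and 0% of all genes, and 0 at the unadjusted p. Retnlb differed between IL-1 and IL-17A at 72 h by -0.93 ± 0.69 (adjusted p = 1).

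The IL-1 effect on Retnlb differed between the times, with -5.18 ± 1.63 for 72 h minus 12 h (adjusted p = 0.038). It was the only 1 of the 8, against 17.4% of all genes. The 2 control libraries shared by both times count at each, and the call was lost with a pseudocount of 10 (adjusted p = 0.053) and in 7 of the 12 fits that left out 1 library. The IL-1 libraries of both times, compared directly on CPM, gave -1.76 ± 0.57 (adjusted p = 0.039), beside a median of -0.23 over all genes and 19.9% of them called. That call was lost without any 1 of 5 of the 6 libraries (adjusted p up to 0.12). For IL-17A the difference between times was called for 0 of the 8 genes (against 0.0393% of all genes, 0 at the unadjusted p, and 1, Tff3, without IL-17A library 3 of 72 h), and the direct comparison for 0 of the 8 by limma, edgeR and DESeq2 (against 0.122%, with 1 at the unadjusted p, Tff3).

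The other products at 72 h were uneven within the treated groups. Fcgbp was at 11885, 61388 and 47917 normalized counts after IL-1 and at 12473, 25464 and 50561 after IL-17A, against 25981 to 26259 in controls. Tff3 was at 1927, 7995 and 6763 after IL-1 and 1795, 2652 and 6840 after IL-17A, against 5307 to 6765. Library 1 was lowest for both genes with both cytokines, and also for Spink4, Bcas1 and Muc2. Without IL-1 library 1 Fcgbp (1.05, adjusted p = 0.011) and Bcas1 (1.01, adjusted p = 0.022) passed above control. Without IL-17A library 3 Tff3 passed below it (-1.49, adjusted p under the limit and 0.05 after rounding). Over all libraries Fcgbp gave 0.32 ± 0.55 after IL-1 and -0.05 ± 0.47 after IL-17A, Zg16 0.84 ± 0.44 and 0.18 ± 0.66, Guca2a -0.01 ± 0.43 and -0.59 ± 0.42, and Sytl2 0.16 ± 0.28 and 0.23 ± 0.27. The median of the 8 genes was 0.07 after IL-1 and -0.18 after IL-17A, beside 0.00 and -0.01 for all genes.

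**Figure D5:**
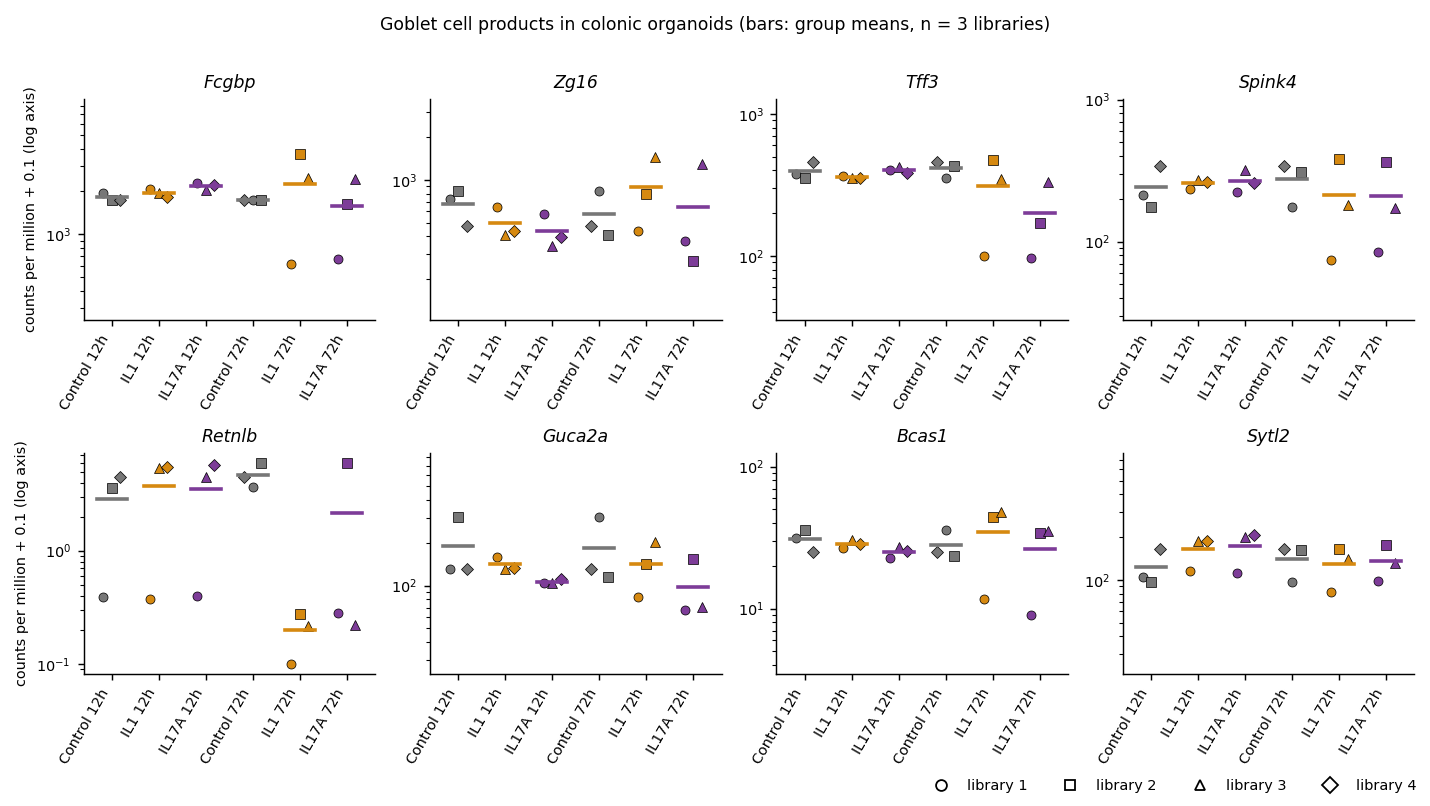
Level in CPM plus 0.1 (log axis) of each gene in the 18 organoid libraries, with a marker for each library number and a bar at the mean of each group of 3. Retnlb is near the bottom of its axis in library 1 of each 12 h group, in all IL-1 libraries of 72 h and in IL-17A libraries 1 and 3 of 72 h, and 2 control libraries appear at both times.

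Markers of other epithelial cells moved in the same organoids. After 72 h of IL-1 the 8 colonocyte markers summed to 12519 to 20791 CPM against 3960 to 6582 in controls, and the 3 stem cell markers to 3.01 to 16.9 CPM against 215 to 331. The 9 goblet cell markers summed to 1543 to 6005 against 4562 to 5521. The part of a changed cell makeup in the Retnlb values was not tested. The adjusted p limit of the lists was met by 38.4% of all genes after 72 h of IL-1 and by 10.8% after IL-17A, so the shares of the exocytosis, regulator and mucus lists after IL-1 were near or below that of all genes. Of 14 exocytosis genes 5 rose, led by Syt7 (1.97 ± 0.25, adjusted p = 0.0029), a calcium sensor, Sytl1 (adjusted p = 0.02) and Unc13d (1.24 ± 0.22, adjusted p = 0.0056), and 1, the paralog Sytl4, fell by 1.02 (adjusted p = 0.036). Of the guanylin pathway the chloride channel Cftr fell by 2.30 (adjusted p = 0.0053), and of 4 antimicrobial genes tested Lypd8 rose by 2.32 ± 0.36 (adjusted p = 0.004) and Pigr by 0.72 ± 0.23 (adjusted p = 0.042), whereas Ang4 fell by 2.68 (adjusted p = 0.012). Of 8 regulators Foxa2 (-1.25 ± 0.29, adjusted p = 0.013) and Foxa3 (-0.65 ± 0.18, adjusted p = 0.023) fell, and Klf4 rose by 1.19 ± 0.26 (adjusted p = 0.011). Of 8 mucus core and assembly genes Tgm3 rose by 3.54 ± 0.86 (adjusted p = 0.016) and Pdia5 fell by 1.22 (adjusted p = 0.015). IL-17A gave 1 regulator (Foxa2, -1.19 ± 0.25, adjusted p = 0.042), 1 exocytosis gene (Syt7, 1.99 ± 0.45, adjusted p = 0.044) and 2 antimicrobial genes (Lypd8, 2.15 ± 0.53, adjusted p = 0.049, and Pigr, 1.10 ± 0.24, adjusted p = 0.044). At 12 h 0 list genes passed, beside 0.0542% (IL-1) and 0.0385% (IL-17A) of all genes.

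Over the 12 epithelial groups, the genes with the most similar profile were sought among 9208 protein-coding genes by the root mean square difference of centred group means of log2(CPM + 1). This distance is not scaled to how much a gene varies itself. Sytl2, with the lowest root mean square of its own (0.71), had the smallest distances, to Mansc1 and Galnt7 (0.20 each). Tff3 had Rnf186 (0.27) and Sh3bgrl3 (0.29). Zg16 was nearest to another of the 8, Spink4 (0.46), then to Psmb9 (0.50), whereas Spink4 was nearest to Atp2c2 (0.29) and Kcnma1 (0.41). Bcas1 had Rasd1 (0.26) and Cacna1b (0.29), Guca2a had Tsc22d1 (0.31) and Il1r1 (0.33), and Fcgbp had Rasd2 (0.39) and Fer1l6 (0.42). Retnlb had the largest distances, with Fosb at 1.05 and Hsd11b2 at 2.19, but also the highest root mean square of its own (4.82). Its correlation with Fosb was 0.98, and that of Sytl2 with Mansc1 0.97. These groups share depth, source and, within organoids, libraries, so the distances describe the profiles only.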

How the data were processed

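RNA-seq was available for 42 mouse libraries in 12 tables of gene counts normalized by the authors. Reads were mapped to mm10 with STAR (version 2.5.3), and the deposited values are a normalized signal, counts divided by DESeq2 (version 1.28.1) size factors within each table. The program and strand setting of counting are not given in the sources used here. All values were whole multiples of 1 step per column (within 0.1), so whole reads were recovered for CPM, RPKM, edgeR and DESeq2. Rows without a gene name (4 in each GS4M2 table, with up to 28.2% of the summed normalized counts of a library) were left out.

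Each comparison was fitted within its table with limma 3.58.1 (trend) on log2(value + 1), for genes with a mean of at least 10. Calls needed p under 0.05 after Benjamini-Hochberg adjustment over all genes tested, and 2-fold. Adjusted p are limma's unless another tool is named. Comparisons across tables used log2(CPM + 1) with a mean of at least 1 CPM. edgeR 4.0.16, DESeq2 1.42.0, other pseudocounts and filters, upper-quartile rescaling, a replicate block and each library left out were alternatives; leaving out the reused controls or the first libraries, and the direct comparison of times, were added after seeing the data. The fits were tested on simulated data. The 8 genes, the lists and the markers were chosen with earlier results of these data known. List genes were counted at an adjusted p under 0.05, and at most 3 per list and comparison are named, by size of fold change, with exceptions stated. One list gene is not reported here by name in any comparison.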

Additional observations from a re-analysis of the deposited data

Results flagged for a closer look

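The effect of IL-1 on Retnlb differed between times in the test of the difference (-5.18 for 72 h minus 12 h, adjusted p = 0.038). At 12 h the replicate 1 libraries of all 3 organoid groups held little Retnlb, and 2 of the controls of 72 h are libraries of 12 h.

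Fcgbp differed between the knockouts in distal goblet cells, by 1.65 on the log2 scale with GS4M2 higher (adjusted p = 0.04).

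Sytl2 in GS4M2 and Spink4 in GA3M2 goblet cells lay on opposite sides of their controls in the 2 segments in every library, but the tests of these differences gave 0.75 (adjusted p = 0.56) and -0.88 (adjusted p = 1), so neither passed.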

How the results depend on the processing

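Each count of the 8 genes was recomputed under the alternatives, 340 in all over 25 comparisons: 280 stayed within 1.5 times the count reported, 60 did not, and no called value reversed. With the unadjusted p the counts were 3 and 1 in GS4M2 goblet cells (proximal and distal, 0 reported), 2 and 1 in GA3M2 goblet cells (0 reported), 2 and 6 in GS4T stroma (1 and 3 reported), 1 and 3 in GA3T stroma (0 reported), 1 between proximal and distal GWTM2 cells, 1 between proximal GS4M2 and GA3M2 cells and 1 between IL-17A times. DESeq2 gave 2 and 1 in GA3M2 goblet cells, 2 in distal GA3T stroma, 1 between GWTM2 segments and 2 between IL-1 times (1 reported). A pseudocount of 10 gave 2 in proximal GS4T stroma and 0 for the difference in IL-1 effect between times (1 reported). A filter at a mean of 50 gave 0 for IL-1 at 72 h (1 reported), because Retnlb is below it; leaving out the first library of each group gave 4 there, and leaving out the reused controls 0. Leaving out 1 library gave 0 to 2 in GS4M2 goblet cells of either segment, 0 to 1 in proximal and 0 to 2 in distal GA3M2 cells, 0 to 7 in proximal and 1 to 2 in distal GS4T stroma, 0 to 4 in proximal GA3T stroma, 1 to 3 for IL-1 and 0 to 1 for IL-17A at 72 h, 0 to 3 for the GS4T difference between segments, 0 to 2 for the IL-1 and 0 to 1 for the IL-17A difference between times, 0 to 1 between GWTM2 segments, 0 to 2 between the knockouts in either segment, and 0 to 1 between IL-1 and between IL-17A times. Where that leaves 1 library in a group, it is assumed to vary like the others. Library numbers share no stated animal or day, so the numbers were not taken to pair the samples. By sex genes, same-numbered GWTM2 and GA3T libraries matched across segments, while GWTT library 1 was male proximal and female distal. The segments may thus share animals in some groups, and the main tests between segments treat their libraries as separate. Over 24 pairs of same-numbered libraries the correlation of deviations ran from -0.19 to 0.64, with 16 over 0.1. These are not separate values. With 2 libraries in each group both pairs of a comparison give the same correlation by construction, and comparisons share controls. The correlation was 0.62 to 0.64 in the 12 h organoids. Same-numbered libraries thus moved together there, and the main fit leaves the number out. With the number as a replicate block the counts were 2 in proximal GS4M2 and 2 in proximal GA3M2 cells, 2 and 6 in GS4T stroma, 2 between GWTM2 segments, 1 between proximal GS4M2 and GA3M2 cells, and 2 and 3 between IL-1 and IL-17A times. By limma with the block, proximal calls were Retnlb (adjusted p = 0.016) and Guca2a (0.029) in GS4M2, and Retnlb (0.0053) and Fcgbp (0.035) in GA3M2 cells. Between GWTM2 segments they were Fcgbp (0.031) and Guca2a (0.0027). In distal GS4T stroma the block added Fcgbp (0.0019), Zg16 (0.022) and Bcas1 (0.047). The cause of the other moves was not tested. Groups of 2 libraries limit every goblet and stromal value, and the low Retnlb reads of organoids limit its fold change.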
